A study of Mus musculus with 16 samples.

Results

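Myotubes of a pmi28 line with inducible msx2 and GFP transgenes were compared with myotubes of a pmi28 line carrying an inducible GFP transgene alone, after both had received the same doxycycline treatment. The members were the 3 RNA-seq libraries of induced msx2-line myotubes and the 3 of induced GFP-line myotubes, 6 of the 16 libraries of the series, and every gene with a symbol in the count table, 19799 of 19866 entries. pmi28 is a mouse myoblast line. Both lines were grown in 20% fetal bovine serum and differentiated for 3 days in 10% horse serum, and the myotubes were caught on a mesh, replated with AraC, a drug that kills dividing cells, and then freed of it. Induction was 2 µg/ml doxycycline for 24 h in the serum-rich growth medium, so doxycycline, medium and GFP were common to both induced groups and the msx2 transgene was the labelled difference between them. Also used were 3 uninduced myotube libraries and 2 uninduced myoblast libraries of each line. The labels do not say whether either line is 1 clone, which promoter drives the transgenes, from which species msx2 was taken, or which medium the uninduced myotubes were in. They do not say either whether replicates are separate cultures, and the p-values then cover only how much these libraries vary.

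Msx2 is a homeodomain transcription factor, mostly known as a repressor, that acts downstream of BMP signals in limb, skull and tooth development and is found in dividing progenitors. Myotubes are multinucleated muscle fibre precursors that form when myoblasts leave the cell cycle and fuse, under the myogenic bHLH factors (Myf5, Myod1, Myog, Myf6) and their Mef2 partners, and then build sarcomeres, the calcium release system and the dystrophin complex. Msx factors are known to hold back myogenic differentiation in progenitors, and the comparison asked what msx2 changes once myotubes have formed, with doxycycline and serum held equal.

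The induced libraries held between 20017852 and 25746368 counts, 16245 genes passed the low-count filter, and the libraries of each group differed from each other by more than counting noise (chi-square per degree of freedom 10.5 to 24.2). The defining markers of myotubes were present in every induced library. Myh3, the embryonic myosin heavy chain, was at 1720 to 2338 CPM (the count scaled by library size) in the msx2 line and 8716 to 10331 CPM in the GFP line. Myog was at 510 to 631 CPM and 790 to 836 CPM, and Acta1 at 3523 to 4977 CPM and 5771 to 6436 CPM. Ckm overlapped, at 328 to 520 CPM and 338 to 384 CPM, and Des was higher in the msx2 line, at 5143 to 5322 CPM and 4261 to 4625 CPM. Principal components were taken over the 1000 genes that varied most among the 6 libraries. The first component separated the lines and held 87.2% of the variance of these genes. The library numbered 2 of each line lay apart from its group on the second component, which held 4.93%, and without both of these libraries 4760 genes were called against 5740 with them.

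Msx2 itself was at 1344, 1462 and 1514 CPM in the 3 induced msx2-line libraries and at 0.803, 1.05 and 1.26 CPM (17, 25 and 26 counts) in the induced GFP-line libraries. Every msx2-line library was therefore far above every GFP-line library, with a log2 difference of 10.43 ± 0.14 (SE, n = 3 and 3; edgeR quasi-likelihood test with Benjamini-Hochberg adjustment over all genes, adjusted p = 1.26e-16). Uninduced msx2-line myotubes were already at 12.1, 15.9 and 13.2 CPM, above the 1.03 to 1.18 CPM of uninduced GFP-line myotubes (log2 difference 3.62 ± 0.13, adjusted p = 3.85e-10). Transgene and endogenous Msx2 reads are counted together in the table, and GFP reads were not analysed here.

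In induced myotubes 5740 genes (35.3% of those tested) differed between the lines at an adjusted p under 0.05, 2853 (17.6%) higher and 2887 (17.8%) lower in the msx2 line. At 2-fold or more, 861 genes (5.3%) were higher and 490 (3.02%) lower. The 3 and 3 libraries did not overlap for 3720 genes (22.9%) with the msx2 line higher and 3805 (23.4%) with it lower. The calls moved with GC content, the share of G and C bases in a gene's exons: in the tenth of genes with the lowest GC (median 39.4%) 53 were higher and 400 lower, and in the tenth with the highest (59.6%) 564 were higher and 136 lower. The median log2 difference ran from -0.13 to 0.20 between these groups in induced myotubes and from -0.02 to 0.03 in uninduced ones. The part of GC content in the calls was not tested beyond a fit with a GC offset, added after seeing the data, in which 5744 genes were called, 44.2% of them higher, and 4527 of the 5740 kept their call.

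**Figure D1:**
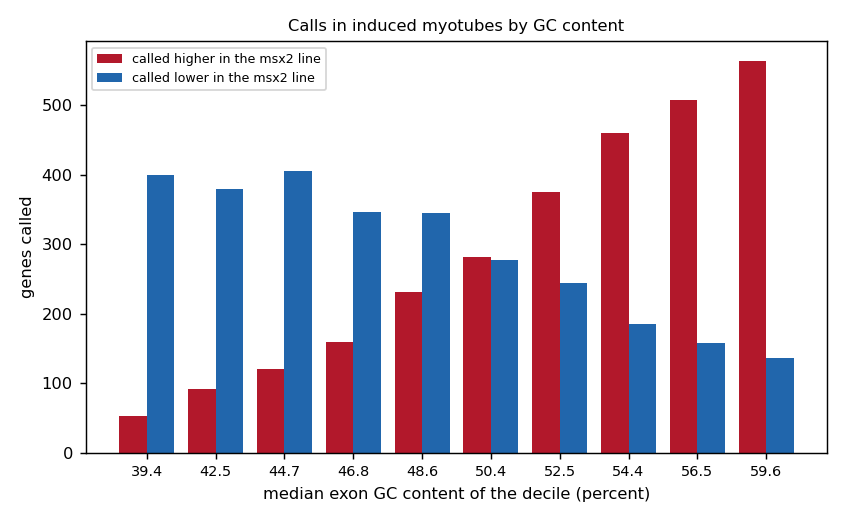
Genes called higher (red) or lower (blue) in induced msx2-line myotubes against induced GFP-line myotubes, in 10 equal groups of tested genes ordered by exon GC content (x axis, median percent of each group; y axis, number of genes). Higher calls grow from 53 to 564 and lower calls shrink from 400 to 136 from the lowest to the highest group.

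The 12 largest rises and the 12 largest falls were taken from genes whose higher group averaged 5 CPM or more. Their 3 and 3 induced libraries also had to be free of overlap, and Msx2 was the first of the rises. Mybpc3, the cardiac form of myosin-binding protein C, was at 31.9, 26.2 and 36.6 CPM in the induced msx2 line and 0.142, 0.42 and 0.195 CPM in the induced GFP line (log2 difference 6.90 ± 0.27, adjusted p = 4.65e-10). Psca, a lipid-anchored surface protein of epithelia, was at 31.4, 25.6 and 21.6 CPM against 0.189, 0.336 and 0.195 CPM (6.72 ± 0.37). Thrsp, a regulator of lipid synthesis, was at 9.25, 6.58 and 7.08 CPM against 0.189, 0.126 and 0 CPM (6.09 ± 0.51). In all 3 genes the groups were widely separated and the GFP line was close to the detection limit, so the size of the fold rests on few counts. Without the induced GFP-line library numbered 2 the difference of Mybpc3 was 7.51, and without the one numbered 1 that of Thrsp was 6.72. The secreted mucins Muc5b (6.03 ± 0.46) and Muc5ac (5.26 ± 0.39) followed, and Muc5b varied widely among the msx2-line libraries, with 21.8, 58.6 and 40.1 CPM. Crhr2, a receptor for corticotropin-releasing hormone peptides, was 5.57 ± 0.42 higher and varied widely as well, at 37.1, 12.0 and 23.2 CPM in the msx2 line. Slc17a7, the vesicular glutamate transporter of excitatory neurons, was measured at much higher counts: 283, 179 and 271 CPM against 8.69, 5.38 and 5.93 CPM (5.20 ± 0.21, adjusted p = 1.42e-09). Also among the 12 largest were Asb10 (4.79 ± 0.26), an ankyrin repeat protein, Necab3 (4.40 ± 0.23), a calcium-binding protein, and Slc5a5 (4.38 ± 0.31), the iodide transporter.

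The 12 largest falls ranged in mean from 5.96 CPM (Ripply1) to 964 CPM (Lrrn1) in the induced GFP line. Fst, follistatin, a secreted inhibitor of myostatin and activin, was at 15.7, 21.9 and 32.2 CPM in the induced msx2 line and 351, 264 and 279 CPM in the induced GFP line (log2 difference -3.68 ± 0.24, adjusted p = 1.19e-07). Lrrn1, a leucine-rich repeat membrane protein, was at 82.2, 95.3 and 193 CPM against 966, 885 and 1039 CPM (-2.96 ± 0.25). Ano5, a membrane protein mutated in a form of muscular dystrophy, was at 24.6, 16.0 and 32.4 CPM against 224, 142 and 189 CPM (-2.93 ± 0.34). That no induced msx2-line library reached any induced GFP-line library in these genes was a condition of their selection. Sln, sarcolipin, which inhibits the calcium pump of the sarcoplasmic reticulum, was lower by a comparable factor but with the widest error (-3.63 ± 0.73, adjusted p = 0.00229), with 13.6, 4.62 and 4.52 CPM in the GFP line and under 1 CPM in every msx2-line library. Without the GFP-line library numbered 1 its difference was -2.91. Slc2a6 (-3.36 ± 0.31), a sugar transporter, Aknad1 (-3.28 ± 0.24), B3galt5 (-3.08 ± 0.34), a glycosyltransferase, Cyp1b1 (-2.98 ± 0.26), a cytochrome P450, Cldn2 (-2.96 ± 0.46), a tight junction claudin, Tnfrsf19 (-2.86 ± 0.26), a TNF receptor family member, Wif1 (-2.78 ± 0.22), a secreted Wnt inhibitor, and Ripply1 (-2.77 ± 0.33), a transcriptional co-repressor of somite formation, completed the 12.

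**Figure D2:**
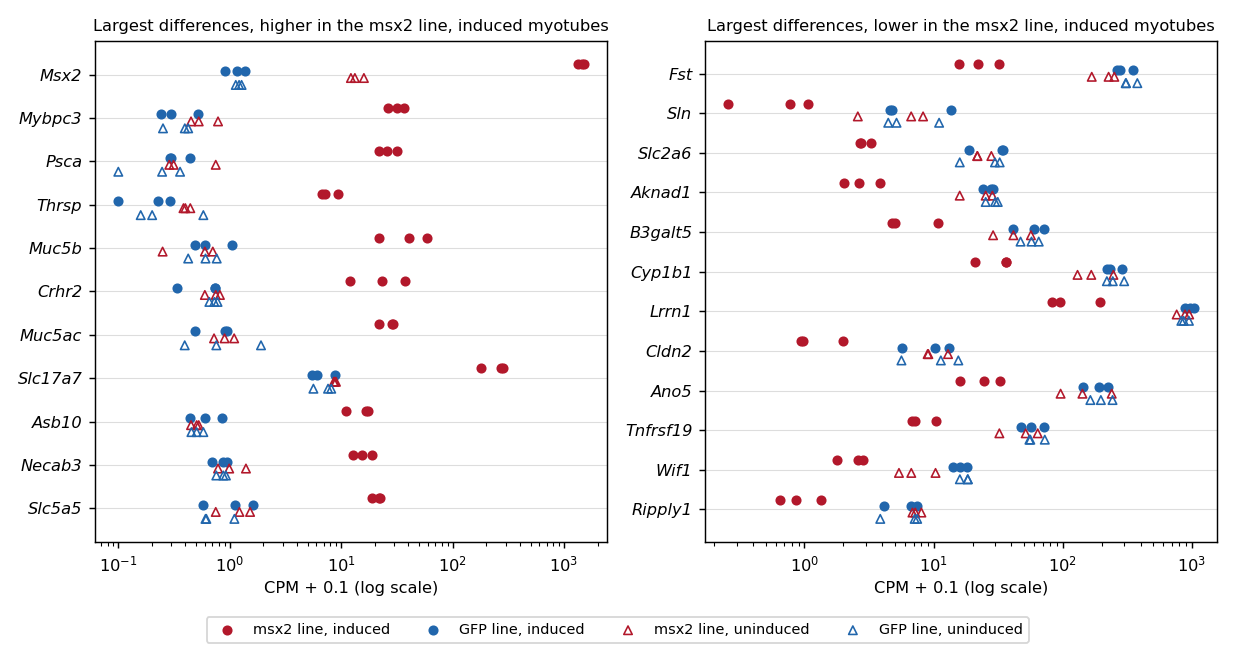
CPM plus 0.1 on a log axis for genes among the 12 largest differences in each direction. They were taken from genes whose higher group averaged 5 CPM or more and whose induced libraries did not overlap between the lines. Filled circles are induced and open triangles uninduced myotubes, red the msx2 line and blue the GFP line, 1 point per library. The 3 induced msx2-line points stand apart from the other 9 points of every gene shown. Their separation from the induced GFP-line points was a condition of the selection.

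Fewer genes differed between the lines in uninduced myotubes. There myotubes 10 genes (0.0616%) passed the same test, Msx2 higher (0.00616%) and 9 lower (0.0554%) in the msx2 line. This count was sensitive to the method: DESeq2 called 154, and leaving out 1 uninduced library gave 2 to 21. With 10 called, all can be named: beside Msx2 they were Slc43a2, Wif1, Atp13a5, Dhrs7c, Cacna1b, Slc16a6, Dnajc27, Katnbl1 and the microRNA gene entry Mir1a-1. Of the 9 lower ones, 8 were lower after induction as well, for example Atp13a5, a P5-type ATPase, with a log2 difference of -1.11 before and -2.33 after, and Katnbl1, a katanin-related protein, with -0.49 and -1.95. Slc43a2, a carrier of large neutral amino acids, was the exception. In uninduced myotubes it was at 39.2, 38.5 and 47.0 CPM in the msx2 line and 69.0, 61.4 and 58.5 CPM in the GFP line (-0.60 ± 0.09), and in induced myotubes at 141, 134 and 141 CPM against 67.1, 57.8 and 55.1 CPM (1.21 ± 0.09). It was the only gene called in opposite directions in uninduced and induced myotubes.

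Uninduced myoblasts of the lines, with 2 libraries each, differed more: 2652 genes (16.3%) were called, 1476 (9.09%) higher and 1176 (7.24%) lower in the msx2 line. Of the 2853 genes higher in induced myotubes, 529 (18.5%) were also higher between myoblasts and 64 (2.24%) lower. Of the 2887 lower ones, 314 (10.9%) were also lower and 236 (8.17%) higher. Among the 861 genes at least 2-fold higher, 77 (8.94%) were higher between myoblasts and 5 (0.58%) lower. Among the 490 at least 2-fold lower, 19 (3.88%) were lower and 44 (8.98%) higher. Genes lower in induced myotubes were thus higher between myoblasts no more often than the 9.09% of all genes. Several muscle genes were among those that were. Myh3 was at 181 and 193 CPM in msx2-line and 58.5 and 64.4 CPM in GFP-line myoblasts (log2 difference 1.60), and Mybph (1.92), Klhl41 (1.38) and Myog (1.81) were higher between myoblasts too.

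Whether the line difference itself changed with induction was tested as an interaction in the same fit. It was called for 2914 genes (17.9%), 1487 (9.15%) shifted up and 1427 (8.78%) shifted down in the msx2 line. Of the 861 genes at least 2-fold higher in induced myotubes, 638 (74.1%) also passed the interaction in the same direction, as did 416 of the 490 lower ones (84.9%). These shares describe comparisons that use the same induced libraries. In the independent uninduced libraries the median log2 difference was 0.16 over the 861 genes and -0.16 over the 490, against 1.52 and -1.38 after induction. Over all genes tested the uninduced median was -0.0003. The uninduced difference had the same sign as the induced one for 617 (71.7%) and 375 (76.5%). The same share over all genes was not determined, so these 2 shares have no background to be set against. Genes with the largest interaction were, beside Msx2 (6.81), Muc5b (6.15), Mybpc3 (6.01), Psca (5.65), Crhr2 (5.58) and Thrsp (5.55) upward, and Sln (-3.40), Slc2a6 (-3.24), Fst (-3.05), Ripply1 (-3.04), Aknad1 (-2.97) and Lrrn1 (-2.94) downward, all on the log2 scale.

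**Figure D3:**
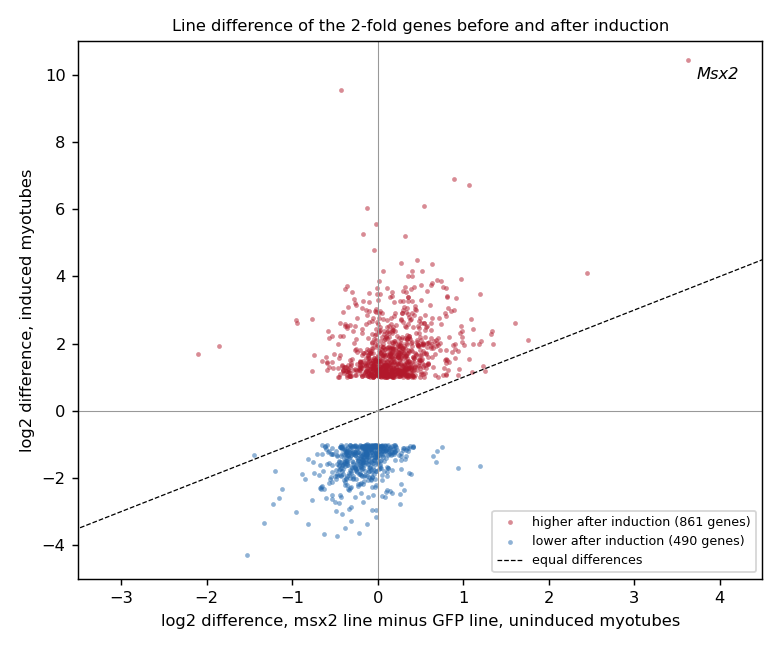
Log2 difference between the lines in induced myotubes (y axis) against that in uninduced myotubes (x axis) for the 861 genes at least 2-fold higher (red) and the 490 at least 2-fold lower (blue) after induction; the dashed line marks equal differences. Most points lie near 0 on the x axis (medians 0.16 and -0.16), and Msx2 is the point at 3.62 and 10.43.

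All 3 induced msx2-line libraries were above all 13 other libraries of the series, myoblasts included, for 1453 genes (8.94% of those tested), and below all 13 for 1217 (7.49%). Among the 861 genes at least 2-fold higher, 632 (73.4%) were above all 13, a level that neither myoblasts nor other myotubes reached. Among the 490 at least 2-fold lower, 137 (28%) were below all 13. Both sets were selected with the same induced msx2-line libraries against induced GFP-line libraries that are among the 13. Shares above those of all genes were therefore partly fixed by the selection. In the GFP line, Fst was 5.38 higher (log2) in uninduced myotubes than in myoblasts, so its low level in the induced msx2 line lay below that of differentiated cells. Mybpc3 averaged 0.0228 CPM in GFP-line myoblasts and 0.257 CPM in uninduced GFP-line myotubes. Of the 490 lower genes, 343 (70%) had risen at least 2-fold in differentiation of the GFP line and 29 had fallen, when 24.8% of all tested genes had risen and 15.8% fallen. Of the 861 higher genes, 318 (36.9%) had risen and 154 (17.9%) fallen.

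Among the 24 genes with the largest differences, 18 were searched in the 250 bases before the start site. Only 4 of these windows held a match to any of the patterns below, and they are shown for that reason. The other windows searched held none. Mybpc3 was the largest rise after Msx2, and Aknad1 was a large fall with matches to the same 2 search patterns. Ripply1 and Cldn2 neighbour each other on the X chromosome and were both lower. The windows hold the 250 bases before the RefSeq start on GRCm38.p6, 5′ to 3′ on the gene's strand, at chr2:91117894-91118143 (plus strand), chr3:108739408-108739657 (plus), chrX:139782354-139782603 (minus) and chrX:139800558-139800807 (plus). Capitals mark matches to TAATTG, the core that Msx homeodomains favour, CAGCTG, an E-box of myogenic bHLH factors, or CTANNNNTAG, a loose Mef2-like pattern. In the last pattern N is any base, with TATT in Mybpc3 and GATA in Aknad1, so a match need not be a Mef2 core. No matches overlap in these windows.
Mybpc3: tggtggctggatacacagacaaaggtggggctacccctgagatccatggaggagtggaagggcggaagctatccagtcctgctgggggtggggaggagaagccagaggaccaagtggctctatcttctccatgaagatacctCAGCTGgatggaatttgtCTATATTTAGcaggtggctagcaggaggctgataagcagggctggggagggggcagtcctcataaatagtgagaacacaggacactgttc
Aknad1: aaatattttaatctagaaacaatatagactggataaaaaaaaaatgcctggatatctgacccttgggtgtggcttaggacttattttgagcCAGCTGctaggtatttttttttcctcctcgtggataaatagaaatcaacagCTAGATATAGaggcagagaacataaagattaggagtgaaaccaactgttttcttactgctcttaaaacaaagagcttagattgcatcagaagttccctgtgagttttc
Ripply1: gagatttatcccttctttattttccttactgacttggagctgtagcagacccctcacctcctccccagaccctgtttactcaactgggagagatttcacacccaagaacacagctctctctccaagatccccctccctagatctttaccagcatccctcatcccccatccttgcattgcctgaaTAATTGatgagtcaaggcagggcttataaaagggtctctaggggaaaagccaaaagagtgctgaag
Cldn2: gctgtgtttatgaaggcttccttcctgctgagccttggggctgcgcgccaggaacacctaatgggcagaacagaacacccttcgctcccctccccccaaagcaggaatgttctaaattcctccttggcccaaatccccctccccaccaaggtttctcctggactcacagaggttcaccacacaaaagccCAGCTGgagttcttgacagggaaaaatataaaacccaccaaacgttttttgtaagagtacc
Mybpc3 and Aknad1 both hold CAGCTG and CTANNNNTAG although they differed in opposite directions, Ripply1 holds TAATTG, and Cldn2 holds CAGCTG. Searched on both strands in 300-base windows, TAATTG was found in 5.08% of the 11851 tested genes with a window, 4.6% of 587 genes at least 2-fold higher and 7.3% of 356 at least 2-fold lower. CAGCTG was found in 16%, 22.1% and 25%, and CTANNNNTAG in 3.15%, 3.58% and 5.34%. A match is a string of letters and not a measured binding site.

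The genes next to these 24 in the RefSeq order were examined whatever their values, leaving out those that belong to the 24 themselves. For the 12 largest rises, 13 of 22 flanking genes were tested, and 8 were higher and 1 lower, when 17.6% of all genes tested were higher. Mybpc3 lies between Spi1 (Sfpi1 in the table, 2.39 higher on the log2 scale) and Madd (1.20), Psca between Jrk (0.88) and Them6 (1.68), and Thrsp beside Kctd14 (3.74). Muc5ac and Muc5b, which adjoin each other, are flanked by Muc2 (2.70) and Tollip (1.34). For the 12 largest falls, 20 flanking genes were tested and 8 were lower, none higher, when 17.8% of all genes tested were lower. Among them were Gpsm2 beside Aknad1 (-1.66), Sh3bgr beside B3galt5 (-1.42) and Tbc1d30 beside Wif1 (-1.13). The strand setting of the counting is not given in the sources used here, so reads that run on from 1 gene into the next, or overlap it, cannot be told apart from the neighbour's own.

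Muscle structure genes were lower more often than higher. For this and the following lists, the shares over all genes tested were 17.6% higher and 17.8% lower. Of 22 thick filament genes tested, 11 were lower and 6 higher (median log2 difference -0.43, against -0.01 over all genes). Myh3 was at 2171, 1720 and 2338 CPM in the induced msx2 line and 10331, 8716 and 8867 CPM in the induced GFP line (-2.16 ± 0.11, adjusted p = 1.8e-09). Myl1, a fast myosin light chain (-1.38 ± 0.11), and Mybph, a myosin-binding protein (-1.32 ± 0.11), were lower too. In the other direction, Myl2, the regulatory light chain of slow and cardiac muscle, was at 52.7, 65.0 and 56.1 CPM against 5.62, 8.15 and 11.8 CPM (2.77 ± 0.23). Mybpc2, the fast form of myosin-binding protein C, was at 229, 157 and 201 CPM against 16.5, 8.91 and 20.6 CPM (3.68 ± 0.33). All 3 forms of the same thick filament protein thus differed: Mybpc3 and Mybpc2 were higher and Mybpc1, the slow form, was lower (-1.51 ± 0.33), the last named after its value was seen.

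Of 39 thin filament and Z-disc genes, 19 were lower and 8 higher (median -0.29). Klhl41, which stabilises thin filament proteins, was at 190, 195 and 263 CPM in the msx2 line and 1020.5, 747 and 859 CPM in the GFP line (-2.02 ± 0.16). Lmod3, a thin filament nucleator (-0.95 ± 0.08), and Myoz2, a Z-disc calsarcin (-1.07 ± 0.10), were lower. Higher were Tpm3, a slow tropomyosin (0.68 ± 0.07), Unc45b, a myosin chaperone (0.66 ± 0.10), and Tnni3, the cardiac troponin I (2.16 ± 0.34), the last at 1.38 to 3.10 CPM. Titin (Ttn) stood at 2599 to 3119 CPM against 6414 to 6941 CPM, with no overlap.

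Of 27 genes for calcium handling and excitation-contraction coupling, 16 were lower and 4 higher (median -0.36). Pln, phospholamban, the second small inhibitor of the calcium pump beside Sln, was at 0.423, 0.394 and 0.213 CPM against 5.20, 4.41 and 4.09 CPM (-3.74 ± 0.29). Kcnj2, an inward rectifier potassium channel, was at 2.75, 2.40 and 5.02 CPM against 18.5, 14.6 and 18.7 CPM (-2.33 ± 0.22). Both were several-fold lower in every msx2-line library. Kcna7, a voltage-gated potassium channel (1.13 ± 0.12), and Clcn1, the muscle chloride channel (1.09 ± 0.21), were higher. Of 17 genes of the dystrophin complex and membrane repair, 13 were lower and 2 higher (median -0.53). Ano5, described above, had the lowest value of the list, and Popdc3 and Myof, membrane proteins of muscle, were lower by 0.91 ± 0.08 and 0.88 ± 0.08. Dag1, dystroglycan, was at 774, 725 and 813 CPM against 498, 473 and 503 CPM and was higher (0.65 ± 0.06). At the neuromuscular junction, 5 of 13 genes were lower, led by Musk, the receptor kinase that clusters acetylcholine receptors, at 64.9, 64.7 and 81.3 CPM against 223, 190 and 202 CPM (-1.54 ± 0.11). Rapsn, the scaffold of the same receptors, was higher (0.56 ± 0.09), and the 2 higher members of this list became 1 without the msx2-line library numbered 3 or the GFP-line libraries numbered 1 or 2. In bulk RNA, fewer cells of a type and less RNA per cell cannot be told apart, and this holds for every gene group here.

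**Figure D4:**
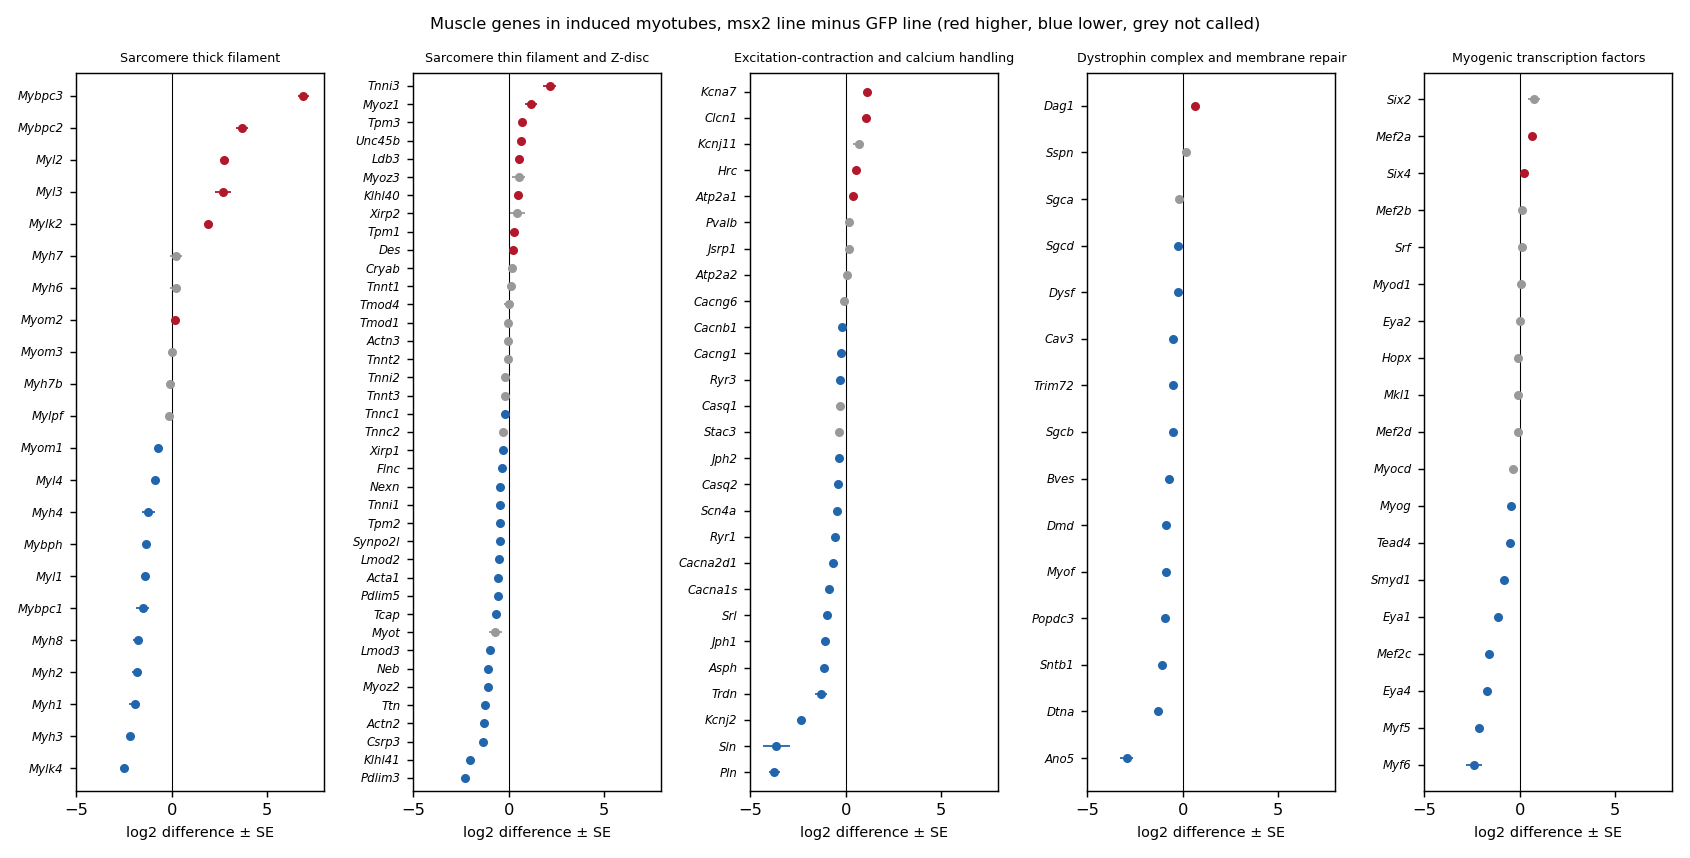
Log2 difference between induced msx2-line and induced GFP-line myotubes (x axis, with its standard error) for tested genes of 5 muscle lists, 1 panel per list; red is higher, blue lower and grey not called at an adjusted p of 0.05. Blue points are the most numerous colour in the first 4 panels, and Mybpc3 at 6.90 is the point farthest from 0.

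The myogenic transcription factors did not move as 1 group. All 20 were tested, 9 were lower and 2 higher (median -0.23). Myf6, a late myogenic bHLH factor, was at 2.37, 1.18 and 3.52 CPM in the msx2 line and 16.5, 9.04 and 11.8 CPM in the GFP line (log2 difference -2.38 ± 0.42, adjusted p = 0.000697). Myf5, the early one, was at 1.73, 1.65 and 1.35 CPM against 8.03, 5.84 and 7.10 CPM (-2.15 ± 0.18). Myog, which drives terminal differentiation, was at 608, 510 and 631 CPM against 793, 836 and 790 CPM, a smaller fall (-0.47 ± 0.08, adjusted p = 0.000162). Myod1, the factor that commits cells to muscle, was at 277, 280 and 308 CPM against 293, 266 and 269 CPM, overlapping between the lines (0.06 ± 0.07, adjusted p = 0.518). With a GC offset its difference turned to -0.19 (adjusted p = 0.0232). Mef2c and Mef2a, 2 members of the same partner family, went opposite ways: Mef2c was at 408, 433 and 564 CPM against 1656, 1309 and 1375 CPM (-1.63 ± 0.15), and Mef2a at 320, 288 and 299 CPM against 209, 185 and 197 CPM (0.62 ± 0.09). Mef2d (-0.12 ± 0.08) and Mef2b (0.09 ± 0.13) did not pass the test. Among the Eya genes and their Six-type homeobox partners, which act upstream of the bHLH factors, Eya4 (-1.72 ± 0.12) and Eya1 (-1.14 ± 0.11) were lower, Eya2 was at 0.03 ± 0.08, and Six2 at 0.74 ± 0.32 without passing the test. Six4 was called higher by 0.20 ± 0.06 and lost the call without either of the libraries numbered 1 or 3 of each line. Smyd1, a muscle histone methyltransferase (-0.81 ± 0.11), and Tead4 (-0.50 ± 0.09) were lower. Srf (0.09), Mkl1 (-0.09), Myocd (-0.33) and Hopx (-0.08) did not pass the test either.

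Genes of earlier states were mixed. Of 27 progenitor transcription factors tested, 10 were higher, Msx2 among them, and 5 lower. Tbx1, a regulator of head muscle progenitors, was at 77.4, 57.3 and 70.0 CPM against 10.9, 8.62 and 12.3 CPM (2.69 ± 0.19), and Sox9, a chondrogenic factor, was 1.27 ± 0.10 higher. Tbx18 (-1.62 ± 0.11), Klf4 (-0.88 ± 0.15) and Lbx1 (-1.13 ± 0.26) were lower. Pax7, the satellite cell factor, was at 10.6, 9.69 and 7.47 CPM against 6.05, 5.72 and 4.13 CPM (0.80 ± 0.19, adjusted p = 0.00482), while uninduced myotubes differed by -0.75 without passing the test, and the interaction was called (1.55). Of 28 fusion and adhesion genes, 11 were lower and 6 higher. Jam2 (-2.08 ± 0.17), Jam3 (-1.31 ± 0.10) and Cdh2 (-1.20 ± 0.11), cell contact proteins, were lower, and Gm7325, the gene of the fusion peptide myomixer, was at 21.5, 29.5 and 31.0 CPM against 96.6, 118 and 68.5 CPM (-1.79 ± 0.23). Tmem8c, its partner myomaker, was at -0.09 and did not pass the test. These last 2 were named after their values were seen. Itga3, a laminin receptor, was at 176, 189 and 178 CPM against 37.6, 45.0 and 38.9 CPM (2.16 ± 0.16).

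Mir133b and Mir1a-1, entries of muscle-specific microRNA genes, were chosen after their values were seen. The mature sequences of miR-133b are shown because its entry was the largest fall among the 21 entries whose symbols begin with Mir (5 higher, 7 lower), with the seed, bases 2 to 8, in capitals. They come from RefSeq on GRCm38.p6, at chr1:20682834-20682855 and chr1:20682797-20682818 on the plus strand.
mmu-miR-133b-3p: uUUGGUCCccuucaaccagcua
mmu-miR-133b-5p: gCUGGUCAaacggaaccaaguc
The Mir133b entry was at 12.1, 11.5 and 19 CPM in the induced msx2 line and 109, 90.3 and 87.3 CPM in the induced GFP line (log2 difference -2.75 ± 0.17, adjusted p = 5.95e-08; interaction -2.30). Mir1a-1 was lower by less, at 20.4, 17.4 and 25.0 CPM against 33.2, 30.8 and 29.5 CPM (-0.57 ± 0.12), and had been lower before induction too (-0.71). In an mRNA library such counts come from longer transcripts over the locus and not from the mature microRNA.

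Of 26 cell cycle control genes, 4 were higher and 8 lower. Of 48 S phase and replication genes, 4 were higher and 2 lower, and of 39 G2/M genes 1 was higher and 5 lower, shares below the 17.6% and 17.8% of all genes. Without the induced msx2-line library numbered 2, 5 S phase genes were lower. Without the msx2-line libraries numbered 1 or 3 or the GFP-line libraries numbered 1 or 3, 2 to 3 G2/M genes were lower, and without the last none was higher.  Ccnd1, cyclin D1, which opens the G1 phase, was at 411, 329 and 278 CPM against 70.6, 69.7 and 61.8 CPM (2.33 ± 0.19, adjusted p = 8.55e-07). E2f1 (1.93 ± 0.15) and E2f2 (2.04 ± 0.10), activators of S phase genes, were higher, as was Cdc45 (1.23 ± 0.11), a replication fork protein, while Rrm2, the ribonucleotide reductase subunit made in S phase, was lower (-1.02 ± 0.12). Cdkn1c, the p57 inhibitor of cyclin-dependent kinases, was at 56.7, 21.1 and 35.3 CPM against 3.35, 3.57 and 2.72 CPM (3.54 ± 0.29). Cyclin D1 and its antagonist were thus both higher in all 3 libraries. Cdk2 (-1.01 ± 0.10), Cdkn2c (-0.86 ± 0.17) and E2f3 (-0.37 ± 0.06) were lower. Mki67, a proliferation marker, was at 0.01 and did not pass the test, and was named after its value was seen. Gas6, a growth arrest-associated ligand of Axl-type receptors, was at 219, 157 and 187 CPM against 23.8, 18.6 and 23.8 CPM (3.09 ± 0.18). Of 35 p53 and apoptosis genes, 7 were higher and 9 lower, with the pro-apoptotic Bid (1.31 ± 0.14) and Bik (1.54 ± 0.27) higher and the death receptor Eda2r lower (-1.47 ± 0.14).

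In the BMP pathway, 10 of 31 genes were lower and 3 higher (median -0.19), against 17.8% and 17.6% of all genes. The extracellular antagonist Fst led the falls, and the receptor Acvr1 (-0.79 ± 0.08) and the co-receptor Rgmb (-0.89 ± 0.09) were lower. Bmp7, a ligand, was higher at low counts, 1.42 to 1.99 CPM against 0.472 to 0.973 CPM (1.17 ± 0.29). The TGF-beta, activin and myostatin list had 6 of 28 higher and 10 lower. Its ligands Tgfb2 (-0.94 ± 0.08) and Tgfb3 (-0.55 ± 0.07) were lower, and Acvr2b, the myostatin and activin receptor, was at 15.5, 15.4 and 15.7 CPM against 2.98, 2.77 and 1.80 CPM (2.62 ± 0.22). In all 3 induced msx2-line libraries this receptor was higher and Fst, which traps its ligands, lower than in any induced GFP-line library. Smad3, the transducer (0.68 ± 0.11), and Ski, a co-repressor of Smads (0.75 ± 0.10), were higher.

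Wnt genes changed in both directions, with 12 of 45 higher and 11 lower, against 17.6% and 17.8% of all genes. The ligands Wnt11, at 84.8, 59.9 and 67.9 CPM against 10.3, 11.1 and 10.2 CPM (2.75 ± 0.13), and Wnt6 (2.90 ± 0.22) were higher, and Wnt10a was lower (-1.28 ± 0.13). Notum, an enzyme that inactivates Wnt ligands, was higher (2.79 ± 0.23), and the ligand trap Wif1 and the receptor Fzd7 (-0.76 ± 0.07) were lower. In the Notch pathway 10 of 22 genes were higher and 4 lower, and with a GC offset 6 were higher. Heyl, a transcriptional target of Notch, was at 50.5, 50.8 and 49.6 CPM against 6.71, 7.15 and 7.20 CPM (2.84 ± 0.08, adjusted p = 3.65e-12). In uninduced myoblasts it was already at 35.1 and 31.9 CPM in the msx2 line against 6.95 and 6.70 CPM in the GFP line (log2 difference 2.29, called higher), while uninduced myotubes differed by -0.12 without a call. The Notch-modifying enzyme Lfng (2.40 ± 0.15) and the target Nrarp (2.43 ± 0.19) were higher, and Hes6 (-0.54 ± 0.08) and Numb, an inhibitor (-0.40 ± 0.07), lower.

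Growth factor genes and the feedback genes of ERK signalling were also split. Vegfa was at 164, 184 and 183 CPM against 62.1, 63.0 and 75 CPM (1.41 ± 0.11), and Pdgfa (1.26 ± 0.10) and the receptor Fgfr1 (0.86 ± 0.08) were higher. Erbb2 was at 64.4, 57.6 and 80.5 CPM against 177, 156 and 167 CPM (-1.30 ± 0.11), and its partner receptor Erbb3 was lower (-0.91 ± 0.10). In all, 13 of 38 genes of the list were higher and 7 lower. Of 34 early response genes 8 were higher and 8 lower, when 17.6% and 17.8% of all genes were. The ERK inhibitors Spry2 (-1.57 ± 0.08) and Spry1 (-1.50 ± 0.11) were lower, and the orphan receptor Nr4a1 was at 63.1, 65.1 and 71.9 CPM against 14.7, 14.7 and 13.3 CPM (2.23 ± 0.13).

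Genes of fat handling and oxidation were higher more often than genes at large. Of 28 fatty acid and triglyceride genes, 16 were higher and 2 lower (median 0.50), and of 42 creatine, purine and oxidative genes, 17 were higher and 4 lower (median 0.15). Plin4, a lipid droplet protein, was at 29.1, 23.6 and 30.3 CPM against 1.32, 1.56 and 2.29 CPM (4.01 ± 0.21). Cpt1b, which admits fatty acids to mitochondria, was at 34.7, 29.2 and 32.4 CPM against 4.39, 4.16 and 4.77 CPM (2.85 ± 0.14), and Fabp3, a fatty acid carrier, at 88.9, 83.4 and 92.8 CPM against 31.9, 30.8 and 30.3 CPM (1.51 ± 0.07). These groups were tight and did not overlap. Dgat2, which makes triglyceride (1.87 ± 0.11), and Scd2, a desaturase (1.07 ± 0.08), were higher, and Cd36, a fatty acid receptor, was lower (-1.21 ± 0.15). Slc2a4, the insulin-regulated glucose transporter of muscle, was at 35.3, 30.5 and 33.4 CPM against 6.66, 5.21 and 5.35 CPM (2.53 ± 0.13), opposite to Slc2a6. Hk2, the hexokinase of muscle, was higher (1.02 ± 0.07), although in the glycolysis and glucose list 10 of 39 were higher and 8 lower, the latter 5 without the msx2-line library numbered 2 or the GFP-line library numbered 1. The cholesterol list was balanced at 7 higher and 6 lower of 26.

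The amino acid and stress response list went down, with 23 of 49 lower and 8 higher (median -0.29). Psat1, an enzyme of serine synthesis, was at 69.9, 94.1 and 93.0 CPM against 150, 169 and 174 CPM (-0.94 ± 0.10). Mthfd2, of mitochondrial folate metabolism (-1.08 ± 0.11), and Slc6a19, a neutral amino acid transporter (-2.46 ± 0.21), were lower. Trib3, a stress-induced pseudokinase, was at 15.5, 20.5 and 19.5 CPM against 4.53, 4.83 and 4.62 CPM (1.98 ± 0.13), and Slc7a5, a leucine transporter, was higher (1.03 ± 0.11). The atrophy, autophagy and lysosome list went up, with 15 of 32 higher and 2 lower (median 0.23). Its muscle ubiquitin ligases Fbxo32, at 103, 86.3 and 93.2 CPM against 37.8, 36.9 and 41.9 CPM (1.28 ± 0.11), and Trim63 (0.70 ± 0.07) were higher, and Foxo1, a transcription factor that activates both, was lower (-0.56 ± 0.09).

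Of 33 mucin and surface epithelial genes listed, 27 passed the low-count filter, 17 of them higher and 1, Cldn2, lower. Members such as Psca passed it through the group in which they were high, so these counts describe the members tested and give no support of their own. With a filter of 5 CPM, 9 of the list were higher, since many were counted at low levels. Muc2 was at 3.25, 2.87 and 2.92 CPM against 0.472, 0.336 and 0.584 CPM (2.70 ± 0.24). Of 29 bone and cartilage genes 8 were higher and 2 lower. Alpl, the alkaline phosphatase of mineralising cells, was at 12.7, 10.6 and 13.9 CPM against 2.08, 2.40 and 2.92 CPM (2.33 ± 0.20), and the homeobox gene Dlx3 was higher (1.41 ± 0.21). Runx1, a transcription factor, was lower (-0.54 ± 0.06). In the matrix list 11 of 46 were higher and 3 lower. Loxl4, a collagen-crosslinking enzyme, was at 65.1, 70.6 and 58.4 CPM against 6.66, 7.27 and 6.57 CPM (3.24 ± 0.11), and its relative Lox was at 129, 271 and 211 CPM against 666, 579 and 757 CPM (-1.71 ± 0.20). Lama5 (1.23 ± 0.08) and Lama2 (-1.23 ± 0.13), chains of basement membrane laminins, likewise differed in opposite directions. Without the induced msx2-line library numbered 2, 11 matrix genes were lower. Among proteases Mmp15 (1.31 ± 0.10) and Mmp19 (2.22 ± 0.22) were higher and Adamts1 (-1.17 ± 0.16) and Adamts5 (-1.18 ± 0.17) lower. In the interferon list 5 of 32 were higher and 2 lower, not above the 17.6% and 17.8% of all genes. Rsad2 (3.40 ± 0.33) and Ifit2 (-1.24 ± 0.11), both antiviral genes, were among them. Without the induced GFP-line library numbered 3 the difference of Rsad2 was 4.25. Of 27 chemokine and cytokine genes 8 were higher, including the receptor Il6ra (2.73 ± 0.16), and 4 lower, including Il1b (-2.07 ± 0.26), and 3 to 4 were higher without the msx2-line libraries numbered 2 or 3 or the GFP-line libraries numbered 1 or 2. Mitochondrial translation genes, 3 of 25 higher and 4 lower, all lay within 0.28 of 0, and 1 to 2 were lower without the msx2-line libraries numbered 1 or 3 or the GFP-line libraries numbered 1 or 2.

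**Figure D5:**
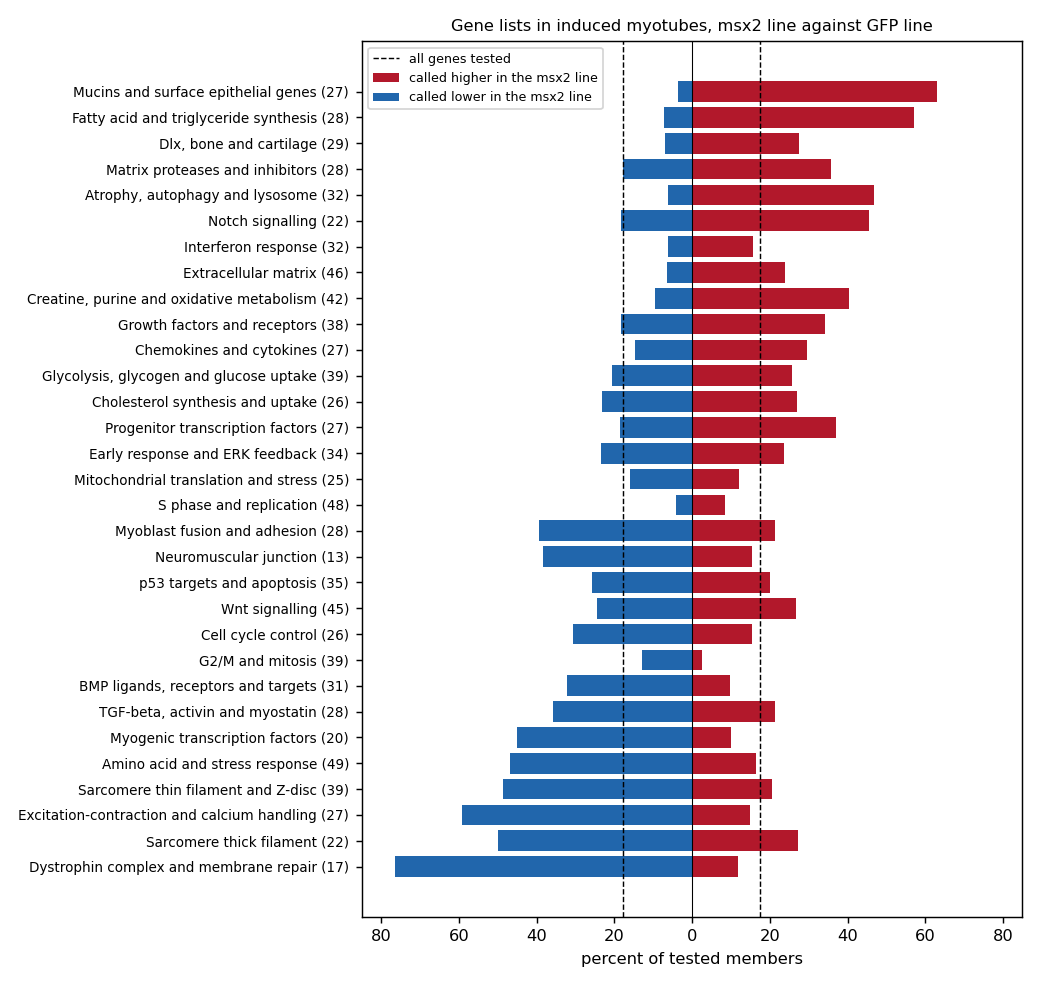
Percent of the tested members of 31 gene lists called higher (red, to the right) or lower (blue, to the left) in induced msx2-line against induced GFP-line myotubes, ordered by the list's median log2 difference, with the number tested in parentheses; dashed lines are the percentages over all genes tested (17.6 and 17.8). Mucin and fatty acid genes are at the top and the muscle structure lists at the bottom.

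Markers of other cell types were measured beside these groups. Summed over the list, adipocyte markers were at 19.7 to 21.4 CPM in the msx2 line and 8.36 to 9.08 CPM in the GFP line, with 8 of 10, Adipoq, Plin1 and Fabp4 among them, under 1 CPM in every induced library. Cebpa was the largest member, at 13.4, 16.6 and 16.4 CPM against 3.02, 3.70 and 2.58 CPM (2.31 ± 0.20). Neural and glial markers summed to 3247 to 3561 CPM against 2056 to 2392 CPM, the largest member being Nes, nestin, which muscle cells also express, and 5 of 15, Gfap and Sox10 among them, were under 1 CPM. Unfused myoblast markers summed to 6086 to 6163 CPM against 5220 to 5711 CPM, the largest member being Des, which myotubes also express, with 4 of 14 higher and 3 lower (6 lower without the msx2-line library numbered 2). Smooth muscle and pericyte markers summed to 1012 to 1559 CPM against 1405 to 1654 CPM, with 6 of 13 tested higher and 2 lower, the latter including Acta2 (-1.06 ± 0.25), and 1 lower without any induced library but the GFP-line library numbered 2. Fibroblast markers summed to 664 to 817 CPM against 633 to 704 CPM, with Lum, Thy1 and Clec3b under 1 CPM. Endothelial markers (48.6 to 55.0 against 49.2 to 55.8 CPM) and leukocyte markers (36.4 to 37.2 against 32.0 to 37.8 CPM) overlapped between the lines in sum. Of 10 leukocyte markers tested, 4 were higher and 1 lower, the latter Itgam (-0.35), the largest member of the sum. Csf1r, the macrophage growth factor receptor, was at 6.17, 5.51 and 6.40 CPM against 0.331, 0.841 and 0.389 CPM (3.49 ± 0.28, and 4.11 without both induced libraries numbered 2). Aif1 (1.49) and Tyrobp (0.64) were also higher, and these 2 and Itgam lost their call in some settings. The part of such cells in the differences above was not tested.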

How the data were processed

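RNA was read with a stranded mRNA kit, per the labels' protocols, and the authors deposited 1 table of gene counts for 16 libraries. Per the submitters' processing notes, the tools included SAMtools 0.1.19, edgeR 3.6.8 and TopHat2 2.0.11, with mm9 as the build and no roles stated; for the strand setting, the annotation and the counting tool no statement was found in the labels. The 67 entries without a symbol were left out. Counts were fitted with edgeR 4.0.16 (R 4.3.3; TMM, a low-count filter with a minimum of 10, robust quasi-likelihood) over the 6 groups of all 16 libraries, and p-values had a Benjamini-Hochberg adjustment over the 16245 genes tested, with calls at 0.05. Total counts are given for the induced libraries in the text, and their spread sets the precision. CPM use TMM-adjusted library sizes and are not length-corrected. A prior count of 2 was used for log CPM, as in the principal components, and fold changes carry only the default prior count of the fit. The standard error is the log2 difference without a prior count divided by the root of F.

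In a simulation of 16245 genes for the induced lines, a small random set of genes was changed and every gene had the same spread. There 86% of the 2-fold and 71% of the 1.5-fold changes were recovered, and 8 unchanged genes were called. The GC trend, gene-to-gene differences in spread and the many calls of the real data were not simulated, so these rates need not hold for them. Named genes were the 12 largest differences each way (mean of 5 CPM or more in the higher group, no overlap), the 6 largest interactions each way, genes called in opposite directions before and after induction, up to 3 each way per list by smallest p, and all myogenic transcription factors; predicted genes were left out, and a few genes that meet the rule are not reported here. A gene described by another criterion was chosen after its values were seen, and this includes Mybpc1, Ttn, Mki67, Gm7325 and Tmem8c. Members and lists were chosen with earlier results of these data known. Exon GC came from GENCODE vM21 and promoters, neighbours and microRNAs from RefSeq, on GRCm38.p6; none was used for counting. Alternatives covered scaling, filters, DESeq2 1.42.0, a replicate block, fewer groups and leaving out libraries, and a GC offset and the removal of both induced libraries numbered 2 were added after seeing the data.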

Additional observations from a re-analysis of the deposited data

Results flagged for a closer look

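The difference between the lines changed with induction for 2914 genes by the interaction test (edgeR quasi-likelihood, Benjamini-Hochberg adjusted p under 0.05). The largest upward shifts of the line difference, on the log2 scale, were those of Msx2 (6.81), Muc5b (6.15), Mybpc3 (6.01), Psca (5.65), Crhr2 (5.58) and Thrsp (5.55). The largest downward shifts were those of Sln (-3.40), Slc2a6 (-3.24), Fst (-3.05), Ripply1 (-3.04), Aknad1 (-2.97) and Lrrn1 (-2.94). Slc43a2 shifted by 1.80 and was the gene whose call turned from lower to higher in the msx2 line.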

How the results depend on the processing

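Counts of genes called in induced myotubes stayed within 1.5 times of 5740 under every alternative run, with 4907 to 5503 when 1 induced library was left out. The exception by size was the number at least 2-fold higher, 537 with a filter of 5 CPM against 861. Of 230 named genes, 221 were called and 198 were called in every setting that tested them. The log2 difference of 5 named genes (Mybpc3, Thrsp, Rsad2, Csf1r and Sln) moved by over 1.5-fold in some setting. Myod1 turned to -0.19 with a GC offset and to -0.19 with a GC offset and replicate block, and Srf to -0.17 with the latter; the cause was not tested. The uninduced lines gave the least stable count: against 10 genes, 20 without a low-count filter, 1 when only the groups compared were fitted, 154 with DESeq2, 22 with a GC offset, and 2 to 21 when 1 library was left out (21 without the GFP library numbered 3). The replicate block gave 6626 calls in induced lines, 173 in uninduced lines, and 252 in uninduced lines with a GC offset. Deviations of same-numbered induced libraries correlated at 0.0912, 0.247 and 0.175, and every induced library correlated best with its own number in the other line. The labels do not say that numbers pair samples, and the main fit had no replicate block, so its p-values ignore any such pairing. Low counts limit the folds of the most induced genes.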

Other observations

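Some genes passed the interaction test without a call in induced myotubes: 46 of the 1487 shifted up and 42 of the 1427 shifted down in the msx2 line. They were chosen after their values were seen. Car2, a carbonic anhydrase, differed by -1.12 (log2) between the lines in induced and by 1.25 in uninduced myotubes, an interaction of -2.37, and neither line difference passed the test alone. Steap3, a metalloreductase, had 0.55 in induced and -0.51 in uninduced myotubes (interaction 1.06), and Mfap4, a microfibril protein, 0.44 and -0.62 (1.06). Anxa3, an annexin, went the other way, with -0.53 and 0.57 (-1.10).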
